A study of Homo sapiens with 8 samples.

Results

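The genes of autophagy and of the lysosome were followed in Saos-2 cells exposed to a compound labelled Prima. The group holds 34 genes, of which 17 act on the autophagosome, 15 belong to the lysosome and 2 are transcription factors of lysosomal genes. They were chosen by name, and each is represented by probe sets that the platform annotation assigns to that gene alone: 82 of the 41091 such probe sets on the array. Each gene was read from its brightest probe set, and all 34 passed the filter on dim genes, which kept 12063 of 19775 genes. The cells are a cultured line from a human bone tumour (osteosarcoma). All groups share its p53-null status, as labelled. Untreated cells (3 arrays, replicates 1, 2 and 3), cells treated with Prima for 6 h (3 arrays, replicates 1, 2 and 3) and cells treated with Prima for 12 h (2 arrays, replicates 1 and 3) were profiled, all from 1 line. The values are MAS5 signals, arbitrary units of probe brightness scaled to the same trimmed mean on every array.

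Macroautophagy encloses cytoplasm in a double membrane, the autophagosome, which then fuses with the lysosome. The ULK1 kinase complex starts the process, a lipid kinase complex around BECN1 marks the site with a phosphoinositide that WIPI proteins bind, and a conjugation system attaches ATG8-type proteins to the growing membrane. Cargo receptors bind both the cargo and the ATG8 proteins. In the lysosome a proton pump, the V-ATPase, acidifies the lumen so that hydrolases can break the content down. TFEB and TFE3 are related transcription factors known to bind a palindromic element in the promoters of many lysosomal genes.

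The core of that element was looked up in the promoters, since both factors are members. RefSeq promoter windows of 300 bases (GRCh38.p14, 250 before and 50 after the transcription start) were at hand for 29 members. The 6-base core CACGTG stood in 7 of these (24.1%), against 7.43% of 27305 promoters of the same length. The longer TCACGTGA, which contains that core, stood in 5 (17.2%), against 1.04% of all promoters. The members were chosen by name as genes of these pathways. The 27305 promoters were not matched to them in gene type or base content, and the contrast was not tested. Both motifs are palindromes, so a match on one strand is a match on both. By arm, TCACGTGA was found in 4 of 11 lysosomal windows (LAMP1, MCOLN1, CTSA and ATP6V0D1), in 1 of 16 autophagosome windows (ATG3) and in 0 of the 2 windows of TFEB and TFE3. CACGTG was present in addition in the windows of ATG14 and CTSD. A match is a stretch of letters and not a measured binding site. The 7 matches of TCACGTGA follow, each with 11 bases on either side to show its surroundings. They run 5′ to 3′ on the gene's strand, and the motif, which was the search string, is in capitals.
ATG3, chr3:112561940-112561969, minus strand: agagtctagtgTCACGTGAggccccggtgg
LAMP1, chr13:113297199-113297228, plus strand: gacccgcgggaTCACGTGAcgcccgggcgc
LAMP1, chr13:113297226-113297255, plus strand: cgcggcgcagcTCACGTGAcaagcgctgcc
MCOLN1, chr19:7522571-7522600, plus strand: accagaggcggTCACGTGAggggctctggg
MCOLN1, chr19:7522598-7522627, plus strand: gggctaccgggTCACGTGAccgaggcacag
CTSA, chr20:45891298-45891327, plus strand: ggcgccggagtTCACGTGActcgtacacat
ATP6V0D1, chr16:67481199-67481228, minus strand: cccccttatggTCACGTGAggcgcttgcgc

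LAMP1 had the most matches of the members searched, 6 of CACGTG in its window. The 250 bases before its start (chr13:113296989-113297238, plus strand) are shown to place the 5 that lie wholly upstream, in capitals.
LAMP1: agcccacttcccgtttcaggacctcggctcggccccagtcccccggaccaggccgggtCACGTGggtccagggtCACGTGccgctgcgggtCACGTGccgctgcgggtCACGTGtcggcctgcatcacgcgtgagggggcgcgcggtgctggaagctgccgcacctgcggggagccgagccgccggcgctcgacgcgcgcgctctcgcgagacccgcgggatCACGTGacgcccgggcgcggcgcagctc

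**Figure D1:**
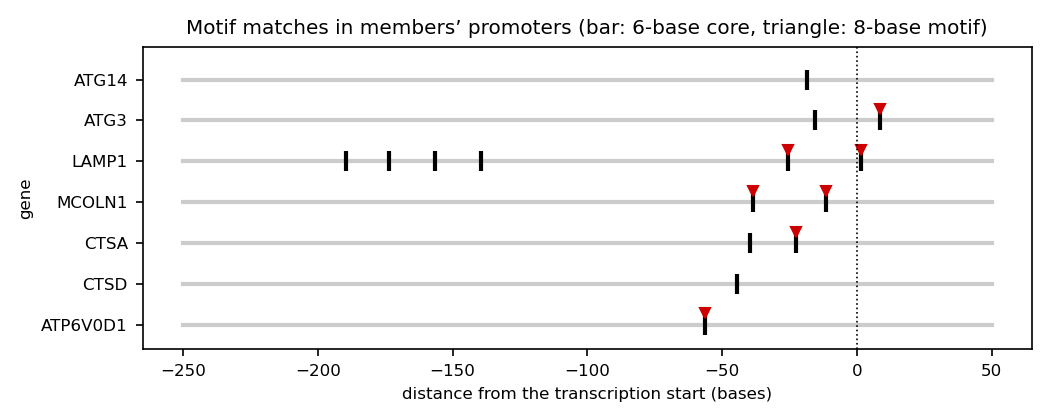
Positions of CACGTG (bars) and TCACGTGA (triangles) in the promoter windows of the 7 members that hold CACGTG, by distance in bases from the transcription start. The matches near the start are shared by several genes, and the 4 matches farthest upstream are all in LAMP1.

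The replicate 2 arrays stood apart from the rest. Their median signals were 50.8 (untreated) and 47.5 (6 h), against 14.2 to 24.9 on the 6 other arrays, and the 12 h group has no replicate 2. ACTB, whose 3′ to 5′ signal ratio goes up as RNA degrades, had a ratio of 2.29 on 12 h replicate 1, 1.73 on 6 h replicate 1 and 1.12 to 1.38 elsewhere, while the same ratio of GAPDH was 0.927 to 1.04 on all arrays. All 8 osteoblast lineage markers with a probe set passed the filter, among them RUNX2 at 1411 to 2350 and SPP1 at only 14.5 to 94.2. Of epithelial, endothelial and lymphocyte markers, 1 of 4 (EPCAM), 1 of 3 (PECAM1) and 0 of 2 passed. Of macrophage and osteoclast markers 3 of 7 passed, and their summed signals were 85.7 to 359 in untreated cells, 102 to 298 at 6 h and 80.5 to 157 at 12 h. The 3 were PTPRC, CSF1R and CTSK, while CD14, LYZ, TYROBP and CD163 did not pass. The sums of 359 and 298 were those of the replicate 2 arrays. The 12 h group lacks that replicate, so the upper ends cannot be compared with 12 h. In lysates of whole cultures, fewer cells with a transcript and less of it per cell cannot be told apart.

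No member passed the test used for all genes (limma without the replicate number, Benjamini-Hochberg adjusted p under 0.05). At 6 h against untreated, 0 of 34 members passed, as did 0% of the 12063 genes tested, and 1 member had an unadjusted p under 0.05, against 0.655% of all genes. In the 12 h comparison with untreated cells 0 members and 0% of genes passed, with 2 members under an unadjusted 0.05 against 0.613% of genes. Between 12 h and 6 h 0 members and 0% of genes passed, with 0 members under an unadjusted 0.05 against 0.73% of genes. With both treated groups pooled against untreated, 0 members and 0% of genes passed, with 1 member under an unadjusted 0.05 against 0.779% of genes. The smallest adjusted p of a member was 0.99989 at 6 h, 0.99994 at 12 h and 0.99998 in each of the 2 other comparisons. With the replicate number as a block, members with an unadjusted p under 0.05 numbered 3 at 6 h (4.09% of all genes), 1 at 12 h (2.17%), 0 between 12 h and 6 h (2.46%) and 4 with the treated groups pooled (4.05%), and again none passed after adjustment. The SE of a gene's log2 difference had a median of 0.35 at 6 h and 0.39 at 12 h over all genes. The differences below are therefore descriptions of these arrays with their errors.

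**Figure D2:**
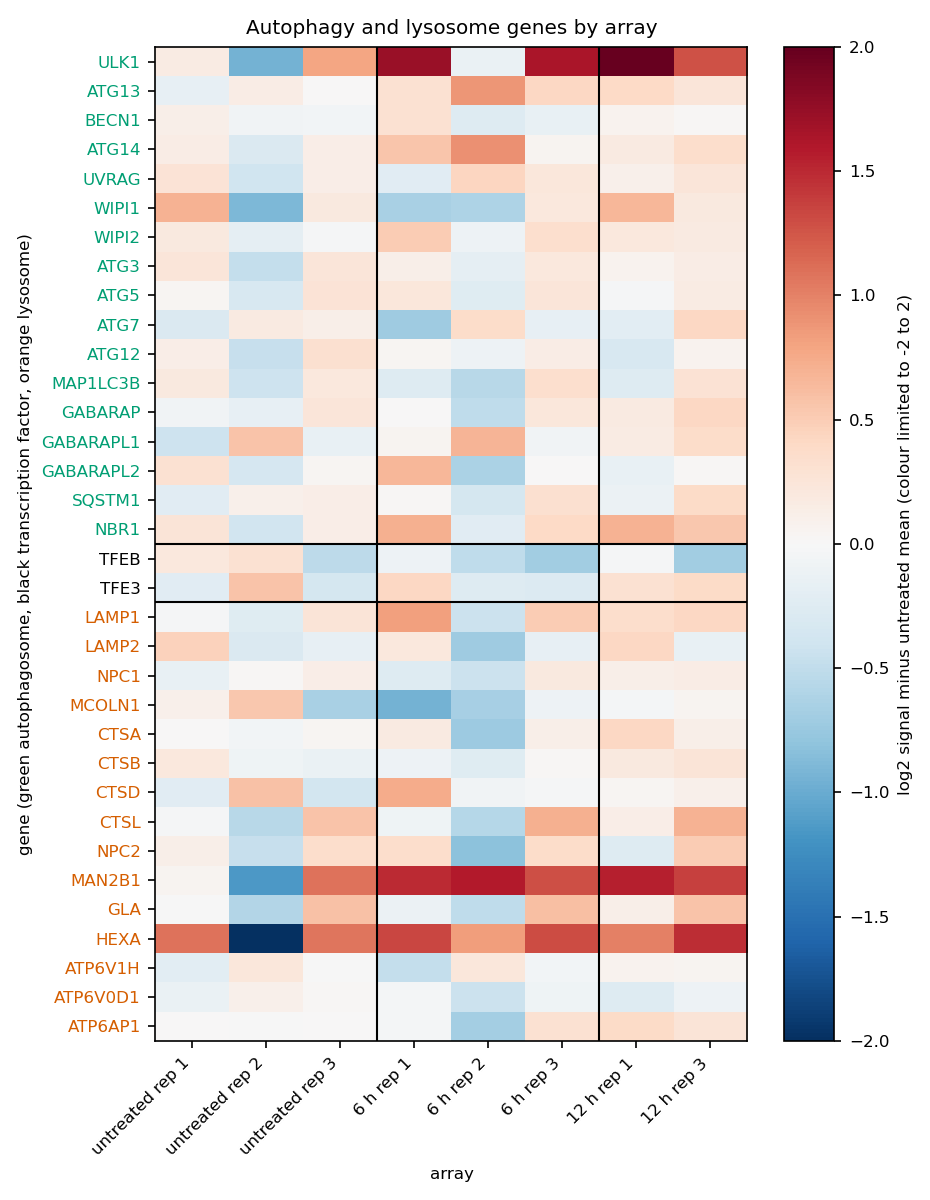
Log2 signal of each member on each of the 8 arrays, minus the gene's mean over the untreated arrays (colour, limited to -2 to 2). ULK1, MAN2B1 and HEXA are red on most treated arrays, HEXA is dark blue on untreated replicate 2, and many lysosomal genes are blue on 6 h replicate 2.

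Among the autophagosome members ULK1 lay farthest from 0 in each comparison when the replicate number was not in the fit. This gene, the kinase that starts autophagy, had signals of 18.1, 8.46 and 28.1 in untreated cells (replicates 1, 2 and 3), 54.1, 14.8 and 50.6 at 6 h (replicates 1, 2 and 3) and 91.0 and 39.2 at 12 h (replicates 1 and 3). Both 12 h arrays lay above all untreated arrays, while 6 h replicate 2 lay among the untreated ones. Its means were 65.1 ± 36.7 at 12 h (SD, n = 2) and 18.2 ± 9.80 in untreated cells (n = 3), a log2 difference of 1.88 ± 0.86 (SE). At 6 h the difference was 1.08 ± 0.77 and between 12 h and 6 h 0.80 ± 0.86. With the replicate number as a block, the 12 h difference was 1.34 ± 0.56 against untreated. Against 6 h it was 0.26 ± 0.56 with the block, less than that of WIPI1 (0.49). Within same-numbered pairs ULK1 was higher than in untreated cells in all 3 pairs at 6 h (log2 ratios of 1.58, 0.81 and 0.85) and in both pairs at 12 h (2.33 and 0.48). The 12 h to 6 h log2 ratio was 0.75 in replicate 1 and -0.37 in replicate 3, so the pairs did not share a direction. The single ULK1 probe set read 91.0 or less on every array.

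ATG13, the partner that links ULK1 to its complex, had 86.3, 107 and 96.8 in untreated cells, 119, 178 and 129 at 6 h and 127 and 114 at 12 h. Every treated array lay above every untreated one. The log2 differences were 0.54 ± 0.30 at 6 h and 0.32 ± 0.33 at 12 h (SE), and the 2 other ATG13 probe sets also had positive differences at both times. The 6 h value was the highest on replicate 2, and the 12 h arrays did not stand above the 6 h arrays (-0.22 ± 0.33). On each of the 2 other probe sets the treated and untreated arrays overlapped. Untreated replicate 3 read 101 on 1 of them, against 83.6 on 6 h replicate 1, and untreated replicate 2 was the highest array on the other (126).

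ATG14, the subunit that directs the BECN1 lipid kinase to the site, had 85.7, 62.7 and 84.8 in untreated cells, 113, 145 and 79.7 at 6 h and 87.0 and 97.8 at 12 h. The 6 h arrays overlapped the untreated ones, with 6 h replicate 3 among them, while both 12 h arrays lay just above them. The difference was 0.51 ± 0.34 at 6 h and 0.26 ± 0.38 at 12 h. BECN1, the scaffold of that kinase complex, stood at -0.033 (6 h) and 0.046 (12 h), and UVRAG, its partner on endosomes, stood at 0.14 and 0.17. The 1 other BECN1 probe set above the filter had the opposite sign at both times (0.10 and -0.22).

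WIPI1, a phosphoinositide-binding protein of the early autophagosome, had 337, 111 and 238 in untreated cells, 132, 134 and 240.02 at 6 h and 329 and 236 at 12 h. The 3 groups overlapped, and untreated replicate 2 was the lowest array of all. The log2 difference was 0.78 ± 0.44 (SE) between 12 h and 6 h and -0.35 ± 0.40 between 6 h and untreated. A further WIPI1 probe set had 181 and 194 at 12 h against 110.2, 118 and 162 at 6 h, without overlap, and 129, 146 and 219 in untreated cells. Within same-numbered pairs the 12 h to 6 h log2 ratio was 1.32 in replicate 1 and -0.03 in replicate 3, so the pairs did not share it. WIPI2, the related protein that recruits the conjugation machinery, differed by 0.25 ± 0.25 at 6 h and 0.20 ± 0.28 at 12 h. Its 4 other probe sets, all above the filter, ran from -0.27 to 0.48 at 6 h and from -0.92 to 0.82 at 12 h.

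The conjugation genes lay close to 0 by their brightest probe sets. ATG7, the activating enzyme, ATG3, the conjugating enzyme for ATG8 proteins, and ATG5 and ATG12, which form the conjugate that helps attach them, had log2 differences of -0.17, 0.050, 0.073 and 0.031 at 6 h. At 12 h these were 0.10, 0.11, 0.076 and -0.12, with SEs of 0.27 to 0.44. In both 12 h pairs ATG3, ATG5 and ATG12 were below their untreated partner, by at most 0.45 on the log2 scale. By these probe sets the 4 genes stayed within 1 SE of 0 at both times without the replicate block. With the block ATG12 stood at -0.27 ± 0.18 at 12 h. Other probe sets above the filter lay farther from 0 in part. At 6 h they stood at -0.74 and 0.88 for ATG7 and -0.73 and 0.15 for ATG12. For ATG3 it was 0.27, and for ATG5 0.12 and 0.45. At 12 h those of ATG7 again differed in sign, with a larger positive value than at 6 h. The rest stood at -0.59 and 0.03 (ATG12), -0.49 (ATG3) and 0.02 and 0.35 (ATG5).

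The ATG8 family, the ubiquitin-like proteins that coat the autophagosome, did not move as a group. GABARAP had 1479, 1394 and 1844 in untreated cells, 1563, 1092 and 1835 at 6 h and 1777 and 2069 at 12 h. The 12 h arrays overlapped both other groups, and the difference was 0.30 ± 0.27 against untreated and 0.39 ± 0.27 against 6 h (SE). MAP1LC3B, the most used marker of autophagosomes, had 573, 377 and 579 in untreated cells, 416, 341 and 631 at 6 h and 416 and 611 at 12 h. Replicate 3 was the highest in every group, and the groups overlapped widely, with differences of -0.16 ± 0.30 and 0.013 ± 0.33. Its other probe set gave another picture, with 443, 273 and 515 in untreated cells, 451, 352 and 604 at 6 h and 526 and 697 at 12 h. There both 12 h arrays lay above all untreated arrays, and the log2 differences were 0.21 at 6 h and 0.61 at 12 h.

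GABARAPL1, which differs from the rest of the family in its brightest arrays, had 57.8, 114 and 69.7 in untreated cells, 80.3, 123 and 73.2 at 6 h and 86.2 and 99.6 at 12 h. Replicate 2 was the highest in both groups that have it, the reverse of the other ATG8 genes, which were lowest there. It was above its untreated partner in all 5 same-numbered pairs, by 0.07 to 0.58 on the log2 scale, while its other probe set had differences of the opposite sign at both times. GABARAPL2 had 1291, 825 and 1073 in untreated cells, 1662, 673 and 1053 at 6 h and 938 and 1059 at 12 h. The highest and the lowest GABARAPL2 values were both 6 h arrays, and the differences were 0.014 ± 0.31 and -0.068 ± 0.35.

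**Figure D3:**
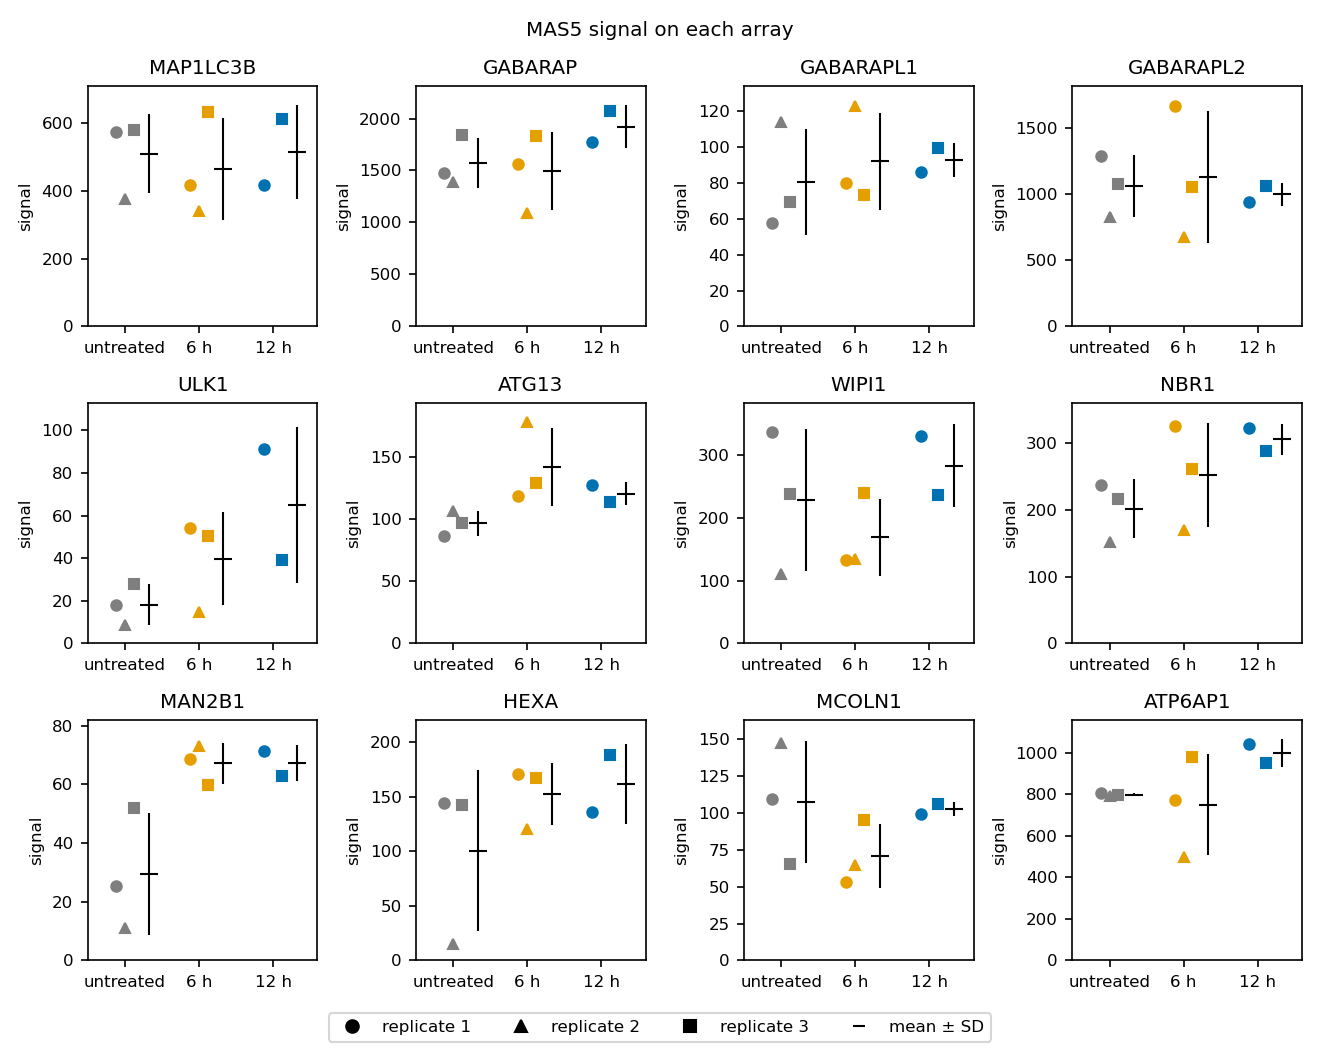
MAS5 signals (linear scale from 0) of 12 members on each array, by group, with the replicate number as the marker and the mean ± SD at the right of each group (n = 3 untreated, 3 at 6 h and 2 at 12 h). For MAN2B1 and ATG13 every treated array lies above the untreated arrays, and for HEXA 1 untreated array at 15.1 lies far under the rest.

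Of the cargo receptors, NBR1, a receptor for ubiquitinated cargo, was higher on both 12 h arrays than on any untreated array. It had 237, 152 and 217 in untreated cells, 326, 169.99 and 262 at 6 h and 323 and 289 at 12 h. The 6 h arrays overlapped both groups, and the 12 h difference was 0.62 ± 0.34 (SE) without the block and 0.40 ± 0.20 with it. Of its 2 other probe sets above the filter, 1 had the same sign at 12 h. SQSTM1, the p62 receptor, had means of 314 ± 71.5 at 6 h and 343 ± 82.6 at 12 h (SD, n = 3 and 2) and 310.03 ± 41.7 in untreated cells (n = 3), differences of 0.0013 and 0.13 on the log2 scale. Its 2 other probe sets above the filter were negative at both times (-0.35 to -0.15).

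The transcription factors did not move together. TFEB had 95.0, 102 and 57.5 in untreated cells, 76.3, 57.7 and 50.8 at 6 h and 81.0 and 50.8 at 12 h. It was below its untreated partner in all 5 same-numbered pairs, by 0.18 to 0.82 on the log2 scale, but the groups overlapped and the differences were -0.44 ± 0.40 at 6 h and -0.36 ± 0.44 at 12 h. A further TFEB probe set also had negative differences at both times. TFE3 had 239, 415 and 219 in untreated cells, 372, 234 and 230.1 at 6 h and 345 and 364 at 12 h. Its highest value was on untreated replicate 2, and the differences were -0.040 ± 0.31 and 0.34 ± 0.34. The 2 other TFE3 probe sets above the filter were negative at both times, at -0.31 and -0.35 at 6 h and at -1.01 and -0.13 at 12 h, so the probe sets disagreed in sign at 12 h. These factors are known to be controlled mainly by where in the cell they reside, which arrays do not measure.

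Against untreated cells the glycosidases MAN2B1 and HEXA lay farthest from 0 among the lysosomal members, while the third one, GLA, was near 0 at 6 h. MAN2B1, the lysosomal alpha-mannosidase, had 25.3, 11.0 and 51.9 in untreated cells, 68.7, 73.2 and 59.7 at 6 h and 71.6 and 62.8 at 12 h. Every treated array lay above every untreated one, and the treated arrays were close to each other while the untreated ones were spread. The difference was 1.46 ± 0.57 at 6 h and 1.46 ± 0.63 at 12 h (SE). Without untreated replicate 2, the lowest array, these were 0.89 ± 0.44 and 0.89 ± 0.49. The log2 ratios within pairs were 1.44, 2.73 and 0.20 at 6 h (replicates 1, 2 and 3) and 1.50 and 0.28 at 12 h (replicates 1 and 3), so the ratio was small in replicate 3 at both times. MAN2B1 has 1 probe set, so no other probes bear on it. That probe set read 73.2 or less on every array, and 11.0 on untreated replicate 2, whose median signal was 50.8.

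HEXA, the alpha subunit of beta-hexosaminidase, had 144, 15.1 and 142 in untreated cells, 171, 120.1 and 167 at 6 h and 136 and 188 at 12 h. Apart from untreated replicate 2 the groups lay close together. The differences of 1.16 ± 0.67 and 1.24 ± 0.75 with all arrays became 0.075 ± 0.30 and 0.16 ± 0.33 without that array. The 1 other HEXA probe set above the filter had the opposite sign, at -0.82 at 6 h and -2.27 at 12 h, and untreated replicate 2 was its highest array. GLA, alpha-galactosidase A, stood at -0.0076 at 6 h and 0.34 at 12 h.

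The lysosomal membrane genes differed in sign at 6 h. LAMP1, a major glycoprotein of the lysosomal membrane, had 2208, 1898 and 2668 in untreated cells, 3960.2, 1659.8 and 3181 at 6 h and 2868 and 2996 at 12 h. The 12 h arrays lay above the untreated ones, while the 6 h arrays held both the highest and the lowest value of all, and the differences were 0.30 ± 0.29 and 0.39 ± 0.33 (SE). MCOLN1, the calcium channel of the lysosome, had 109.7, 148 and 65.1 in untreated cells, 52.9, 64.6 and 95.1 at 6 h and 99.5 and 106 at 12 h. Both 12 h arrays lay above all 6 h arrays and within the untreated range, with a difference of 0.58 ± 0.43 between 12 h and 6 h and -0.57 ± 0.38 between 6 h and untreated. LAMP2, the related glycoprotein, and NPC1, which exports cholesterol, differed by -0.22 and -0.16 at 6 h and by 0.14 and 0.14 at 12 h. The 3 other LAMP2 probe sets, all above the filter, had the opposite sign at 6 h (0.018 to 0.23) and the same sign at 12 h. Of the 3 other LAMP1 probe sets, 2 had the same sign as the brightest at both times and 1 was negative (-0.27 at 6 h and -0.38 at 12 h).

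All 4 lysosomal proteases had differences above 0 at 12 h, up to 0.42 for CTSL. CTSA, a carboxypeptidase that also protects other hydrolases, had 758 and 618 at 12 h against 650.001, 345 and 618 at 6 h, with 6 h replicate 2 far under the others, and 572, 552 and 589 in untreated cells. The 12 h arrays were above the untreated ones without overlap, and the differences were 0.26 ± 0.31 against untreated and 0.40 ± 0.31 against 6 h. For CTSB, a cysteine protease, the 12 h arrays lay above the 6 h arrays (0.34 ± 0.27), and all but 1 of its 4 other probe sets had the same sign. CTSL, another cysteine protease, and CTSD, an aspartic protease, differed by 0.42 and 0.073 at 12 h. NPC2, which hands cholesterol to NPC1, differed by 0.13 at 12 h.

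For the V-ATPase, ATP6AP1, an accessory subunit of the pump, had 805, 789.8 and 798 in untreated cells, 772, 499 and 981 at 6 h and 1044 and 949 at 12 h. The untreated arrays were nearly identical and both 12 h arrays lay above them, while 6 h replicate 2 was far under all others. The differences were 0.32 ± 0.29 against untreated and 0.46 ± 0.29 against 6 h (SE). ATP6V0D1, of the membrane sector, was below 0 at both times (-0.18 and -0.18), and ATP6V1H, of the cytosolic sector, stood at -0.10 and 0.067. The 1 other ATP6V1H probe set above the filter had the opposite sign at both times.

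**Figure D4:**
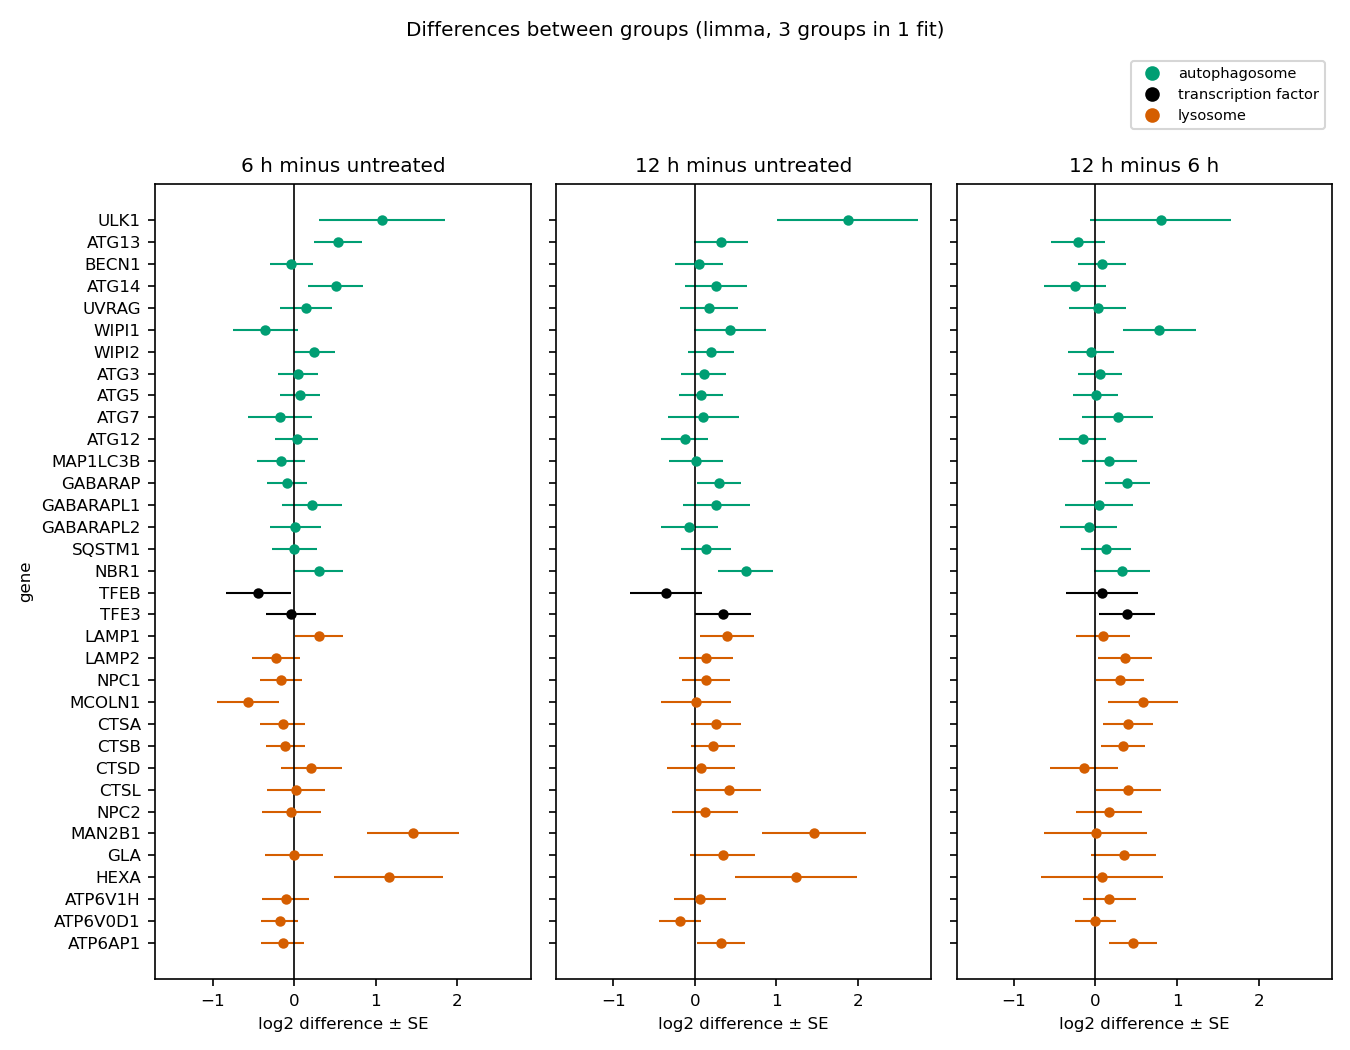
Log2 differences ± SE of the 34 members from the limma fit, for 6 h minus untreated, 12 h minus untreated and 12 h minus 6 h, coloured by arm. MAN2B1, HEXA and ULK1 lie farthest from 0 against untreated, and at 12 h minus 6 h 14 of the 15 lysosomal genes lie above 0.

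Set side by side, the arms lay on opposite sides of 0 at 6 h and farthest apart between 12 h and 6 h. Against untreated, 12 of 17 autophagosome members were above 0 at 6 h (median log2 difference 0.05) but 5 of 15 lysosomal members (median -0.10), while 53% of all genes tested were above 0 (median 0.02). The 12 h arrays against untreated had 15 of 17 autophagosome members (median 0.17) and 14 of 15 lysosomal members (median 0.23) above 0, with 59.9% of all genes (median 0.08). With the replicate number as a block these were 11 of 17 (median 0.14) and 12 of 15 (median 0.13), with 57.4% of all genes, and the count over all members was 24 in place of 30. Between 12 h and 6 h, 12 of 17 autophagosome members (median 0.06) and 14 of 15 lysosomal members (median 0.30) were above 0, with 57.2% of all genes (median 0.06). Brighter genes leaned upward at 12 h. A stricter filter, at the 75th percentile, kept 30 members and 7601 genes. There 74.6% of genes were above 0 at 12 h against untreated (median 0.14), beside 13 of 15 autophagosome and 13 of 14 lysosomal members. At 12 h against 6 h it was 70.8% of genes (median 0.12), beside 10 of 15 and 13 of 14. With the treated groups pooled, 22 of 34 members were above 0, against 55.8% of all genes. The comparisons share arrays, so their values are not independent. The difference between the arms was not tested.

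The lysosomal values at 6 h turned on 1 array. On 6 h replicate 2 the lysosomal members had a median of -0.43 against their untreated means on the log2 scale, compared with -0.03 and 0.20 on the other 6 h arrays. Without it the lysosomal median was 0.15 at 6 h against untreated and 0.11 at 12 h against 6 h. The autophagosome median was then 0.16 at 6 h and -0.03 at 12 h against 6 h. That fit kept untreated replicate 2, the same-numbered partner of the array left out. Without both replicate 2 arrays the 6 h medians were 0.04 for lysosomal and 0.07 for autophagosome members, with all genes at 0.02. With the replicate number as a block, the 12 h against 6 h medians were 0.12 for lysosomal and -0.0052 for autophagosome members, and 19 of the 34 members lay above 0 in place of 28. Within same-numbered pairs the lysosomal median at 6 h was -0.06, -0.36 and 0.13 (replicates 1, 2 and 3) and the autophagosome median 0.19, 0.16 and 0.02. At 12 h it was 0.16 and 0.16 (replicates 1 and 3) for lysosomal and 0.01 and 0.17 for autophagosome members. The 12 h array of replicate 1 is the one with the ACTB ratio of 2.29, while its GAPDH ratio was 1.04, and the part of RNA integrity in its values was not tested.

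**Figure D5:**
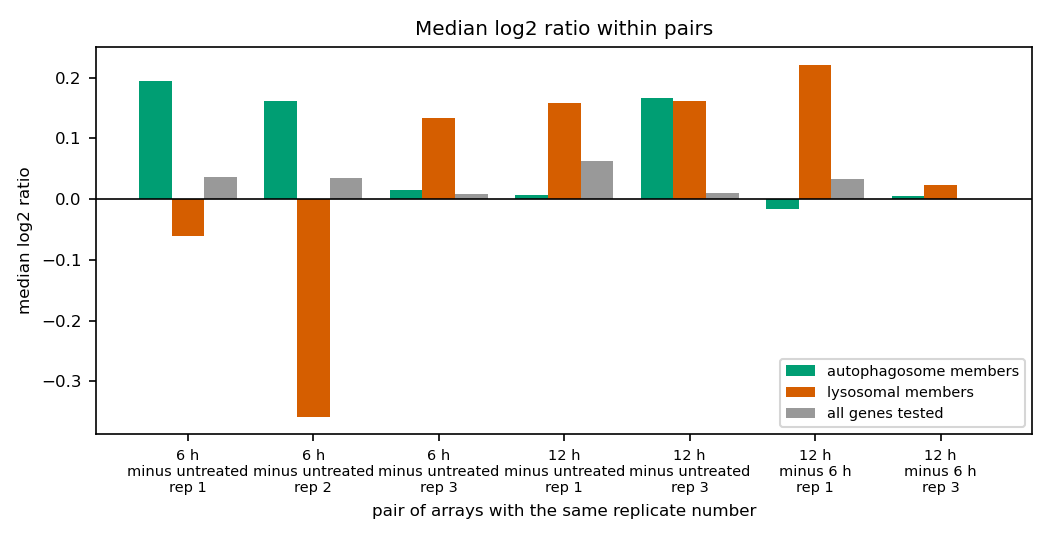
Median log2 ratio within the 7 pairs of arrays that share a replicate number, for autophagosome members (17), lysosomal members (15) and all genes tested (12063). The lysosomal median is -0.36 in the replicate 2 pair at 6 h and above 0 in both 12 h pairs.

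Non-overlapping groups were counted for the members and for all genes. At 6 h all arrays lay above all untreated arrays for 2 of 34 members (ATG13 and MAN2B1), against 2.03% of genes tested, and below for 0, against 1.51%. At 12 h they lay above for 8 members (ULK1, ATG13, ATG14, NBR1, LAMP1, CTSA, MAN2B1 and ATP6AP1), against 9.6% of genes, and below for 0, against 4.89%. The 12 h arrays lay above the 6 h arrays for 2 (MCOLN1 and CTSB), against 7.1%, and below for 0, against 4.5%. Within same-numbered pairs 7 members were above their untreated partner in all 3 pairs at 6 h, against 13.6% of genes, and 2 (TFEB and ATP6V1H) below in all 3, against 10.4%. In both pairs at 12 h 18 members were above, against 34% of genes, and 7 below, against 25%. In both 12 h to 6 h pairs 10 members were above, against 26%, and 6 below, against 23.6%.

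Members with CACGTG in their promoter window were set beside those without it. In 12 h against untreated cells the 7 with the motif had a median log2 difference of 0.11, from -0.18 (ATP6V0D1) to 0.39 (LAMP1), with 6 above 0. The 22 with a window but no match had a median of 0.23, with 19 above 0. At 6 h the medians were 0.05 with and -0.0031 without the motif, and at 12 h against 6 h they were 0.06 and 0.17. The motif holders thus had the higher median at 6 h and the lower one in both 12 h comparisons, as a description with no test.

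Other genes of the same pathways came from 5 lists written from textbook knowledge, with 141 genes that had a probe set and 132 that were tested. None passed (0 of 132 in each comparison, beside 0% of all genes). At 6 h, at 12 h and at 12 h against 6 h, 0, 0 and 2 had an unadjusted p under 0.05. All genes had 0.655%, 0.613% and 0.73%. With the block, 3 hydrolases and 2 membrane genes were under 0.05 at 6 h (4.09% of all genes) and 1 hydrolase at 12 h (2.17%). Between 12 h and 6 h it was 1 hydrolase, 1 membrane gene and 1 mTORC1 gene (2.46%). Of all genes tested, 53%, 59.9% and 57.2% were above 0 in the 3 comparisons, and 53%, 57.4% and 53.1% with the block. The genes named here were the 2 of each list with the smallest p. At 6 h, 18 of 31 other autophagy genes were above 0 (median 0.02), with RUBCN, an inhibitor of autophagosome maturation, at 0.65 ± 0.34 (SE) and ATG4A, a protease that processes ATG8 proteins, at -0.43 ± 0.28. Of 31 further hydrolases and cofactors 14 were above 0 (median -0.03), with the cysteine protease CTSS at 1.60 ± 0.82 and the beta-mannosidase MANBA at 0.70 ± 0.43. Of 26 further membrane and trafficking genes 13 were above 0 (median -0.01), with VPS33A, a tethering subunit, at 0.61 ± 0.33 and SCARB2, which carries a hydrolase to the lysosome, at 0.57 ± 0.32. The V-ATPase split 8 to 8, with ATP6V0E2 at 0.78 ± 0.61 and ATP6V1E2 at 0.69 ± 0.66. Of 28 genes of mTORC1, the growth kinase that represses autophagy, and its sensors 14 were above 0, with the inhibitor TSC1 at 0.51 ± 0.32 and the AMPK subunit PRKAA2 at -1.33 ± 0.92.

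In the 12 h comparison with untreated cells, other autophagy genes had 24 of 31 above 0 (median 0.08), with VMP1, a membrane protein of the early autophagosome, at -0.67 ± 0.33 (SE) and RUBCN at 0.73 ± 0.38. VMP1 had 112 and 115 at 12 h against 212, 168 and 166 in untreated cells, without overlap. Hydrolases and cofactors had 20 of 31 above 0 (median 0.10), with PSAP, the precursor of the saposins, at 0.65 ± 0.33 and MANBA at 0.57 ± 0.48. PSAP had 1380.5 and 1184 at 12 h against 916, 655 and 904 in untreated cells, also without overlap. Membrane and trafficking genes had 15 of 26 above 0 (median 0.10), with the transporter MFSD8 at -1.03 ± 0.49 and the cation channel TPCN1 at -1.40 ± 0.73. The V-ATPase again split 8 to 8, with ATP6V0E1 at 0.38 ± 0.33 and ATP6V1G2 at -0.90 ± 0.88. The mTORC1 list had 20 of 28 above 0 (median 0.20), with LAMTOR2, of the Ragulator complex, at 0.50 ± 0.34 and FNIP1, a folliculin partner, at 1.21 ± 0.86. With the replicate number as a block these counts were 17 of 31 for other autophagy genes (median 0.02), 19 of 31 for hydrolases (0.08), 15 of 26 for membrane genes (0.05), 5 of 16 for the V-ATPase (-0.06) and 19 of 28 for mTORC1 (0.07).

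Between 12 h and 6 h, other autophagy genes had 21 of 31 above 0 (median 0.07), with WDFY3, a selective autophagy adaptor, at -0.69 ± 0.47 (SE) and the lipid transfer protein ATG2B at -0.50 ± 0.34. Hydrolases and cofactors had 17 of 31 above 0 (median 0.07), with PSAP at 0.71 ± 0.33 and the acid sphingomyelinase SMPD1 at 0.97 ± 0.48. Membrane and trafficking genes had 14 of 26 above 0 (median 0.03), with IGF2R, a receptor that sorts hydrolases to the lysosome, at 0.73 ± 0.30 and TPCN1 at -1.45 ± 0.73. IGF2R had 1115 and 1121 at 12 h against 624, 488 and 995 at 6 h, without overlap, and 957, 762 and 923 in untreated cells. The V-ATPase had 10 of 16 above 0, with ATP6V0E2 at -1.09 ± 0.69 and ATP6V0C at 0.45 ± 0.32. The mTORC1 list had 20 of 28 above 0 (median 0.15), with the Rag GTPases RRAGD at -0.53 ± 0.35 and RRAGC at 0.41 ± 0.31. The block gave 16 of 31 for other autophagy genes (median 0.01), 16 of 31 for hydrolases (0.02), 14 of 26 for membrane genes (0.0059), 7 of 16 for the V-ATPase (-0.02) and 16 of 28 for mTORC1 (0.06). At 6 h, where every replicate number is present in both groups, the block left the counts as they were.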

How the data were processed

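Biotin-labelled cRNA from 8 samples was hybridised to Affymetrix arrays (per the labels' protocols). The authors deposited linear probe-set intensity values. MAS5 is the tool named in the submitters' processing notes, with its settings not given in the sources used here. The 2% trimmed mean of the deposited intensity was 100.01 on every array, so array depth is not known and the number of arrays limits the precision. No pair of arrays shared more than 1 identical value.

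Of 54675 probe sets 62 controls were left out. The annotation, of GEO's platform table with symbols checked by gene ID against RefSeq (41037 of 41091 matched), gave 1 symbol for 41091, several for 1801 and none for 11721. A gene was read from its brightest probe set (highest mean log2). Signals under 2.386, the 10th percentile, were set to it before log2. Genes entered the test with a mean log2 signal above 4.216, the median of all probe sets.

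The test was limma 3.58.1 under R 4.3.3 (3 groups in 1 fit, eBayes with a variance trend) with p-values adjusted over all genes and a threshold of 0.05. The script was tested on simulated data. The labels do not say whether replicates were separate cultures, and the spread behind the p-values may be technical. Same-numbered arrays tended to deviate together (correlation of deviations from group means 0.108 to 0.637 in 7 pairs, against -0.576 to 0.333 in 14 others). Deviations cancel within a group, so these correlations are not independent of each other, and the ranges overlapped. Among replicate 1 arrays the correlation was only 0.108 to 0.163. The main test took no account of the replicate number. It entered through the ratios within same-numbered pairs and through a replicate block, run as an alternative. The members and lists were chosen with earlier results of these data known.

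Genes described array by array were the ATG8 family, both transcription factors and, in each comparison, the 3 members of each arm with the smallest p. Of other pathway lists, the 2 genes with the smallest p were named. Alternatives changed the scaling, floor, filter, probe-set rule, variance model, groups fitted and array weights, or left out 1 array or both replicate 2 arrays. Promoters were read from RefSeq (GRCh38.p14).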

Additional observations from a re-analysis of the deposited data

Results flagged for a closer look

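ATP6V1H, a subunit of the cytosolic sector of the V-ATPase, was below its untreated partner in all 3 same-numbered pairs at 6 h and above it in both pairs at 12 h. The log2 ratios were -0.27, -0.0018 and -0.05 at 6 h and 0.29 and 0.07 at 12 h, and the log2 difference between 12 h and 6 h was 0.17 ± 0.32 (SE), with a limma adjusted p of 1.00. In the replicate 2 pair the ratio was close to 0. The 1 other ATP6V1H probe set above the filter had the opposite sign at both times (0.061 at 6 h and -0.32 at 12 h). The share of all genes with such a change of sign is not given here.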

How the results depend on the processing

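Under the 23 alternatives of each comparison the count of members called was 0 in every case, with the replicate block and with array weights too. The lowest adjusted p of a member was 0.751 at 6 h against untreated, 0.486 at 12 h against untreated and 0.815 at 12 h against 6 h. Members with an unadjusted p under 0.05 numbered 0 to 3, 0 to 5 and 0 to 2, against 45 to 581, 34 to 1087 and 33 to 599 of all genes tested. For treated against untreated, array weights gave 10 members and 2384 of 12063 genes under an unadjusted 0.05, with a lowest adjusted p of a member of 0.142. After centring each array on its median, the median of all genes was 0.66 for 12 h over untreated, with medians of all members (0.77), autophagosome members (0.75) and lysosomal members (0.81). At 12 h against 6 h these were 0.73, 0.64 and 0.89, with all genes at 0.65, and for treated against untreated 0.29, 0.30 and 0.26, with all genes at 0.27. Relative to all genes, which centring cannot change, the members stood 0.10 higher at 12 h against untreated, 0.03 higher after quantile normalization and 0.04 higher with the filter at the 75th percentile. Without 12 h replicate 3 this was -0.0024 and without 12 h replicate 1 it was 0.21, so it rests on 1 array. With array weights and the replicate block the lysosomal median at 12 h against 6 h was 0.063. The cause was not tested. Other medians moved by less than the spread between replicates (SD 0.20 for members, 0.20 for autophagosome and 0.23 for lysosomal members), except the lysosomal one at 6 h without 6 h replicate 2 (0.15). With 1 array left out, lysosomal medians ran from -0.23 to 0.15 at 6 h, from 0.13 to 0.33 at 12 h and from 0.11 to 0.39 at 12 h against 6 h, and autophagosome medians from -0.07 to 0.17, from 0.10 to 0.24 and from -0.04 to 0.10. Where that left 1 array at 12 h, it was assumed to vary like the other groups. With the replicate block the median of all members was -0.0031 at 6 h, 0.13 at 12 h and 0.07 at 12 h against 6 h. The block changed no call.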

Other observations

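A probe set shared by GABARAPL1 and GABARAPL3 was not used, since it cannot tell the genes apart. Its signals were 151, 104 and 196 in untreated cells, 272, 124 and 183 at 6 h and 167 and 226 at 12 h, with replicate 2 the lowest in both groups that have it, unlike the GABARAPL1 probe set described, where replicate 2 was the highest.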
